A study of Homo sapiens with 39 samples.

Results

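The genes described here encode the proteins of the mitochondrial ribosome. They were chosen by symbol, as every gene of the whole-genome guide library whose name is MRPL or MRPS followed by a number and at most 1 letter, which gave 78 of 19113 targeted genes and 312 of 77441 guides, with 4 guides per gene. Growth of A375, an established melanoma cell line, was followed after pooled CRISPR knockout with this library. All cells were MED12 KO, so they lacked MED12, a subunit of the Mediator coactivator complex, before the library was introduced, and this deletion is shared by every group. The 5 groups, with 3 libraries each, were cells at day 0, cells at day 8 in vemurafenib (2 µM), cells at day 8 in DMSO, cells at day 14 in vemurafenib (2 µM) and cells at day 14 in DMSO. Vemurafenib inhibits mutant BRAF, the kinase that drives this line. The labels do not say whether the knockout cells were 1 clone, and a whole-genome screen in cells with intact MED12 was not analysed here, so none of the values below shows what the loss of MED12 adds. The smaller epigenetic library of the same series held 0 of these genes.

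Mitochondria keep a small genome of their own, and the messenger RNAs made from it encode core subunits of the respiratory chain and of ATP synthase. Those subunits are translated by a ribosome of bacterial descent inside the organelle. All of its proteins are encoded in the nucleus, made in the cytosol and imported, while its ribosomal RNAs come from the mitochondrial genome. A cell that loses this ribosome cannot renew its respiratory chain, and many cultured lines then divide more slowly. In a pooled screen the abundance of a guide in genomic DNA stands for the number of cells that carry it, so a guide becomes rare when its cells divide less or die, and those 2 causes cannot be told apart. The symbol rule takes in 51 proteins of the large subunit and 26 of the small subunit. MRPS30 and MRPS18A sit in the large subunit despite their names. The last gene, MRPS36, is now known as a subunit of the oxoglutarate dehydrogenase complex, an enzyme of the citric acid cycle, and not of the ribosome. By the unified ribosomal names, 46 of the 77 ribosomal proteins have a bacterial counterpart and 31 are specific to mitochondria. These classes follow the names only, and MRPS18A counts as mitochondria-specific although it is a relative of bacterial S18.

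The 15 libraries held 47766947 to 87591804 counts, and reads were PCR products with no molecular identifiers mentioned in the labels. Guide counts varied strongly between libraries of 1 group (common dispersion 1.09 in edgeR), and the spread grew with time. The SD of a member's gene score over 3 libraries had a median of 0.20 at day 0, 0.76 at day 8 in vemurafenib, 0.75 at day 8 in DMSO, 1.35 at day 14 in vemurafenib and 1.27 at day 14 in DMSO. A gene score is the mean over the tested guides of log2 CPM, where CPM are counts scaled to the library size after TMM and a count of 0.5 is added. The error given with a score change is its SE, from 3 libraries in each group without pairing by replicate number. The labels do not say whether replicates were separate cultures or infections, so p-values measure the spread between these libraries. Part of that spread was shared across days and arms, since same-numbered libraries deviated together in all 30 pairs (r 0.46 to 0.843). The source of the spread, which may in part be technical, was not tested. Guide counts in DNA hold no gene expression, so the cell line could not be checked by markers.

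Guides against the mitochondrial ribosome were rarer at the later days in both arms of the screen. At day 0 the median count of the 312 guides was 0.268 to 0.299 of the median count of 1000 untargeted guides, and that of all guides was 0.308 to 0.314. At day 8 the ratio of the 312 guides was 0.102 to 0.135 in vemurafenib and 0.0957 to 0.109 in DMSO, and at day 14 it was 0.0417 to 0.0709 in vemurafenib and 0.0448 to 0.0568 in DMSO. The ratio of all guides was lower at the later days as well. Over both arms it was 0.23 to 0.238 at day 8 and 0.154 to 0.178 at day 14. Guides against the cytosolic ribosome, the machine that translates nuclear messages, already stood at 0.0979 to 0.105 at day 0. By day 14 they stood at 0.0011 to 0.00562 in vemurafenib and 0.0032 to 0.00702 in DMSO. A library of the plasmid pool was not analysed here, so losses before day 0 are not measured. Of the 312 guides against the mitochondrial ribosome, 57 to 60 had no read at day 14 in vemurafenib and 50 to 55 had none at day 14 in DMSO, against 0 to 1 at day 0. These were 18.3% to 19.2% in vemurafenib, where 9.48% to 10.3% of all guides had no read. In DMSO they were 16.0% to 17.6%, where 7.41% to 8.7% of all guides had none. At day 0 the share of all guides was 0.227% to 0.262%.

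**Figure D1:**
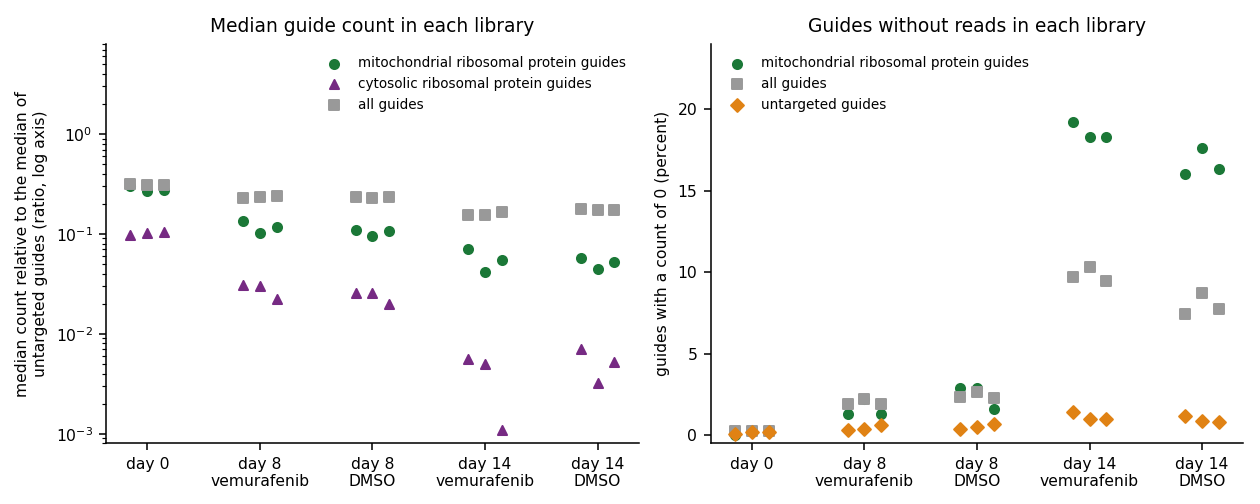
Guides in each of the 15 libraries, with day 0 at the left and vemurafenib left of DMSO on each day. The left panel plots the median count of mitochondrial ribosomal protein guides (circles), cytosolic ribosomal protein guides (triangles) and all guides (squares) as a ratio to the median of untargeted guides on a log axis, and the right panel the percent of guides with a count of 0. The mitochondrial ribosomal protein guides start beside all guides and end below 0.08 on both arms, while the cytosolic ones start near 0.1.

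The question of growth without drug was addressed by the DMSO libraries at day 14 against day 0. The gene score was lower at day 14 for all 78 genes, against 14373 of all 19101 genes tested, and its change had a median of -2.70 over the 78 genes and -0.65 over all genes. Other measures gave smaller falls for the 78 genes. The median guide log2 fold change, from group means, was -0.88 over the 78 genes and 0.3 over all genes. With counts summed per gene the medians were -0.64 and 0.23. None of the 78 genes passed the edgeR/RRA test, in which guide p-values of a quasi-likelihood model are combined per gene by robust rank aggregation and adjusted over all genes, with a threshold of 0.05. That test called 23 genes lower in all (0.12% of those tested). At an unadjusted edgeR/RRA p under 0.05, 24 of the 78 were lower and 0 higher, where 4.56% of all genes were lower and 3.14% higher. With limma on the gene scores, an alternative to the first test, 31 of the 78 fell after adjustment over all genes, where 7.97% of all genes fell, and 0 rose (0.419% of all genes). At an unadjusted limma p under 0.05 it was 54 (21.8% of all genes). With the replicate number as a block in limma 62 of the 78 fell, the 31 among them, where 26% of all genes fell. DESeq2 in place of edgeR called 0 of the 78.

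All 3 libraries at day 14 in DMSO lay below all 3 at day 0 for 59 of the 78 genes (30.1% of all genes did so). Within pairs of libraries that carry the same replicate number, 72, 71 and 75 of the 78 were lower at day 14, and 63 were lower in every pair (39.1% of all genes). When libraries were scaled on the untargeted guides, limma called 72 of the 78 lower, but it then called 61.6% of all genes lower. The median change was then -3.94 over the 78 genes and -1.89 over all genes. Leaving out a day 0 library moved the count, since limma called 15 without library 1, 16 without library 2 and 15 without library 3. The share of all genes called lower was smaller too, at 2.83%, 3.0% and 2.88%.

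**Figure D2:**
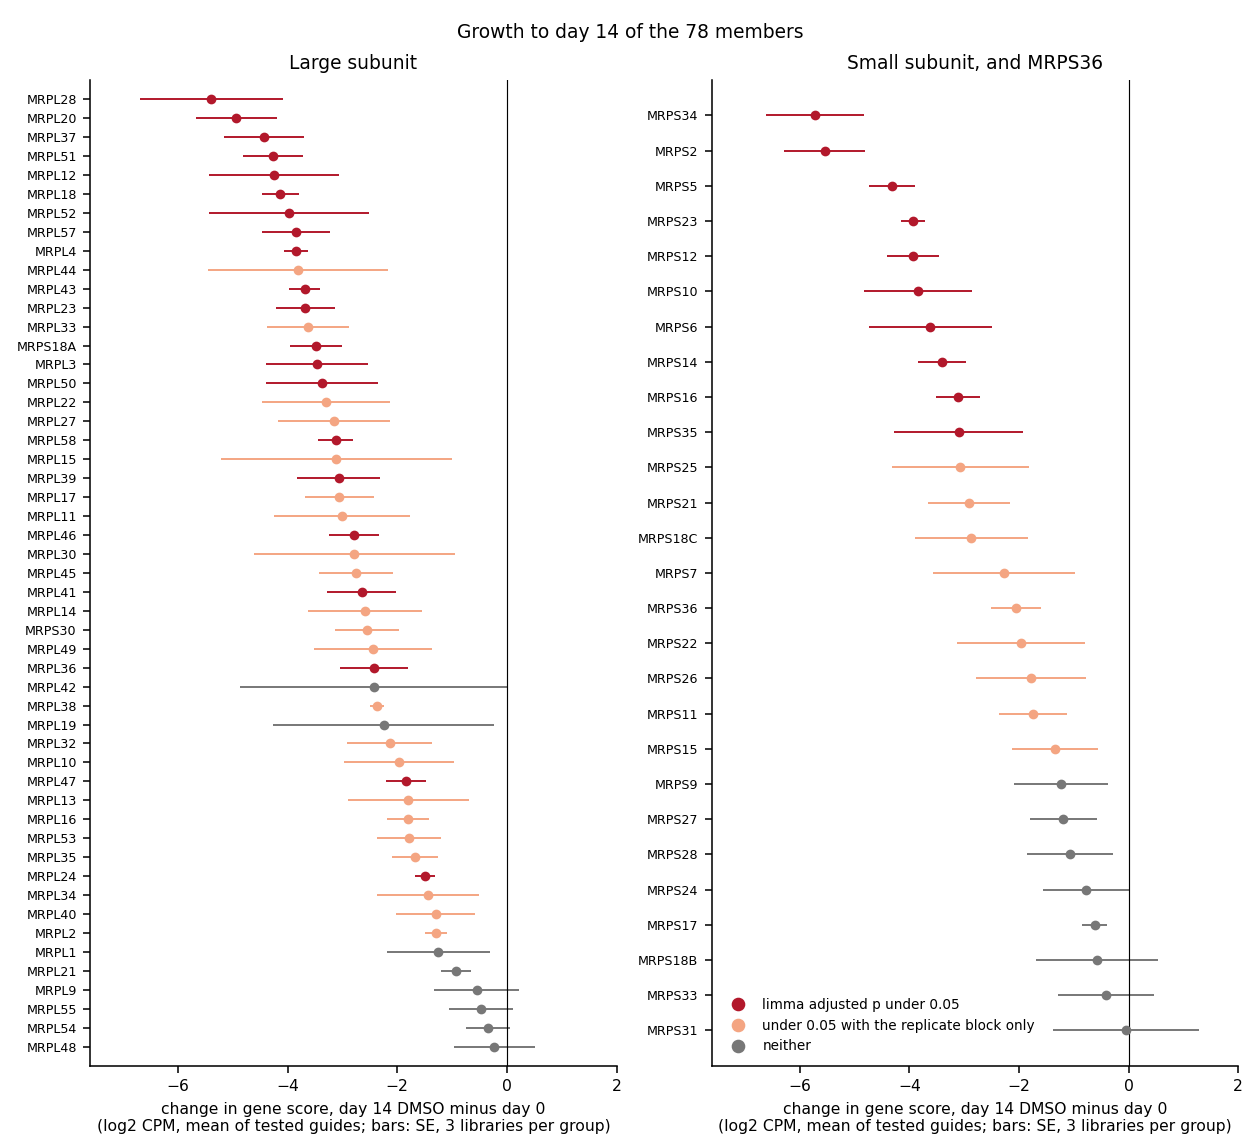
Change in gene score from day 0 to day 14 in DMSO for each of the 78 genes, as points with the standard error from 3 libraries per group, for the large subunit (left) and for the small subunit with MRPS36 (right). Dark red marks the 31 genes that passed limma, light red the genes that passed only with the replicate block, and grey the other 16. All 78 points lie below 0, from -5.72 for MRPS34 to -0.04 for MRPS31.

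Among proteins with a bacterial counterpart, 10 of 30 in the large subunit fell by limma. They were MRPL3, MRPL4, MRPL12, MRPL18, MRPL20, MRPL23, MRPL24, MRPL28, MRPL36 and MRPL47. In the small subunit 7 of 16 fell, namely MRPS2, MRPS5, MRPS6, MRPS10, MRPS12, MRPS14 and MRPS16. Among proteins specific to mitochondria, 11 of 21 in the large subunit fell, which were MRPL37, MRPL39, MRPL41, MRPL43, MRPL46, MRPL50, MRPL51, MRPL52, MRPL57, MRPL58 and MRPS18A. In the small subunit 3 of 10 fell, MRPS23, MRPS34 and MRPS35. Median score changes were -2.75 for the large and -2.57 for the small subunit, and -2.75 for mitochondria-specific proteins against -2.68 for those with a bacterial counterpart. All 4 counts are to be read against 7.97% of all genes. With the replicate block, where 26% of all genes fell, they were 25 of 30 and 12 of 16 for proteins with a bacterial counterpart in the large and the small subunit, and 18 of 21 and 6 of 10 for mitochondria-specific ones. Differences between these classes were not tested. MRPS36, which is not ribosomal, changed by -2.05 ± 0.46 (limma adjusted p = 0.0803, and 0.00588 with the replicate block).

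MRPS34, a mitochondria-specific protein of the small subunit, had the most negative score change (-5.72 ± 0.90, limma adjusted p = 0.00677). It passed edgeR/RRA only without DMSO library 2 at day 14 (edgeR/RRA adjusted p = 0.0411, and 0.38 with all libraries). The next genes, MRPL12, MRPS12 and MRPL58, were chosen for their known roles after their values were seen. MRPL12, the counterpart of the bacterial stalk protein that recruits translation factors, fell by 4.25 on the log2 scale (SE 1.19, limma adjusted p = 0.0206). MRPS12, whose bacterial relative lies at the decoding centre, fell by 3.93 on the log2 scale (SE 0.47, limma adjusted p = 0.000793). MRPL58, a peptidyl-tRNA hydrolase built into the large subunit, fell by 3.12 on the log2 scale (SE 0.32, limma adjusted p = 0.00553).

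The 6 genes with the lowest edgeR/RRA p for growth to day 14 and no overlap with day 0 were MRPS2, MRPL20, MRPL4, MRPL28, MRPS5 and MRPL37. MRPS2, the counterpart of bacterial S2 in the small subunit, had summed CPM over its 4 guides of 0.951, 3.77 and 0.686 at day 14 in DMSO, against 22.1, 21.6 and 14.8 at day 0. All 3 late libraries were far below the 3 early ones, and vemurafenib libraries at day 14 (8.91, 1.59 and 3.31 CPM) were low as well. Its score changed by -5.54 ± 0.74 (edgeR/RRA adjusted p = 0.106, limma adjusted p = 0.00251, 7.2e-05 with the replicate block). Each of its guides was lower on the log2 CPM scale, with changes from -8.08 to -4.03, and guide 4 had 0, 0 and 1 reads at day 14 in DMSO, against 474, 515 and 427 at day 0.

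MRPL20, a large-subunit protein whose bacterial relative is needed early in assembly, had sums and scores that differed. Its summed CPM was 11.9, 41.1 and 4.87 at day 14 in DMSO, against 20.4, 19.6 and 17.6 at day 0, so the sums overlapped. The scores did not, at -3.77, -1.47 and -3.51 in DMSO at day 14, against 2.13, 2.21 and 1.72 at day 0. Guides 2 and 3 were almost gone at day 14 in DMSO, with 0 to 1 reads in each library. Guide 1 held 1, 2106 and 1 reads there, against 231, 645 and 228 at day 0, so 1 library carried nearly all of its remaining reads. The score changed by -4.94 ± 0.74 (edgeR/RRA adjusted p = 0.124, limma adjusted p = 0.00156, 3.93e-05 with the replicate block).

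RefSeq (GRCh38.p14) places 77 of the 78 genes, on 21 chromosomes. Promoters, from 250 bases before to 50 after an annotated start, were found for 69 genes, 85 promoters in all. The sequence CCGGAAG, bound by ETS factors such as GABP (also called NRF2), which are known to drive nuclear genes for mitochondria, was searched on both strands and lay in 33 of the 85 (38.8%), against 12.8% of the promoters of protein-coding genes and 10.3% of all promoters. The motif of NRF1, another such factor, searched on both strands, lay in 10 of the 85 (11.8%), against 7.39% of protein-coding and 5.78% of all promoters. Guide counts measure no promoter, and a match is a description only. The promoters of MRPL20 (chr1:1407244-1407543, minus strand), with 2 matches to CCGGAAG, and of MRPS23 (chr17:57849995-57850294, minus strand), with 1, are shown because MRPL20 is among the 6 genes with the lowest p for growth and MRPS23 has the lowest p for vemurafenib at day 14. Of the other 5 genes with the lowest p for growth, MRPL28 has 1 match, and MRPS2, MRPL4, MRPS5 and MRPL37 have 0 in any promoter listed. The 2 sequences run 5′ to 3′ with the matches on either strand in capitals.
MRPL20: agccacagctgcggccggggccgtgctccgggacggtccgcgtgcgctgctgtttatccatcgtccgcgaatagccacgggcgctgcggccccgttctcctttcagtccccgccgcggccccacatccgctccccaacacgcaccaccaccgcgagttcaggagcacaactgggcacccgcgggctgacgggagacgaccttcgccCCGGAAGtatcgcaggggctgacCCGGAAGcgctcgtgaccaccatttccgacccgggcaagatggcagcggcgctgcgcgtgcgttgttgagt
MRPS23: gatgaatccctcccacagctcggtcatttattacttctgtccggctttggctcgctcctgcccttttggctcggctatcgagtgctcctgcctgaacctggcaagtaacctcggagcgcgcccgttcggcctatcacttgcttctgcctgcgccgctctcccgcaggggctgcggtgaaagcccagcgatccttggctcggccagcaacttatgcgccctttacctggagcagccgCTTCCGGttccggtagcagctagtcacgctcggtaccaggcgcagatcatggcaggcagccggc

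MRPL4 belongs to the large subunit, and its bacterial relative lines the tunnel through which the new peptide leaves. Its summed CPM was 2.61, 10.8 and 3.27 at day 14 in DMSO, against 19.3, 24.4 and 19.1 at day 0, with no overlap. The score changed by -3.84 ± 0.22 (edgeR/RRA adjusted p = 0.124, limma adjusted p = 0.00183). MRPL28, another large-subunit protein with a bacterial relative, had 4.48, 0.843 and 0 CPM at day 14 in DMSO, against 11.0, 11.4 and 11.3 CPM at day 0. DMSO library 3 held 0 reads of its 4 guides at day 14. The score changed by -5.39 ± 1.30 (edgeR/RRA adjusted p = 0.278, limma adjusted p = 0.00937).

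MRPS5, whose bacterial relative helps set the accuracy of decoding, had 5.58, 6.24 and 12.3 summed CPM at day 14 in DMSO, against 30.3, 28.7 and 31.6 CPM at day 0. The groups were far apart, and the score changed by -4.31 ± 0.42 (edgeR/RRA adjusted p = 0.34, limma adjusted p = 0.00244). MRPL37, a mitochondria-specific protein of the large subunit, had 1.83, 1.09 and 9.58 CPM at day 14 in DMSO, against 14.7, 14.6 and 15.8 CPM at day 0. Its score changed by -4.43 ± 0.73 (edgeR/RRA adjusted p = 0.361, limma adjusted p = 0.018). In vemurafenib at day 14 MRPL37 had 2.91, 1.17 and 74.2 CPM, so library 3 alone stood far above day 0.

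**Figure D3:**
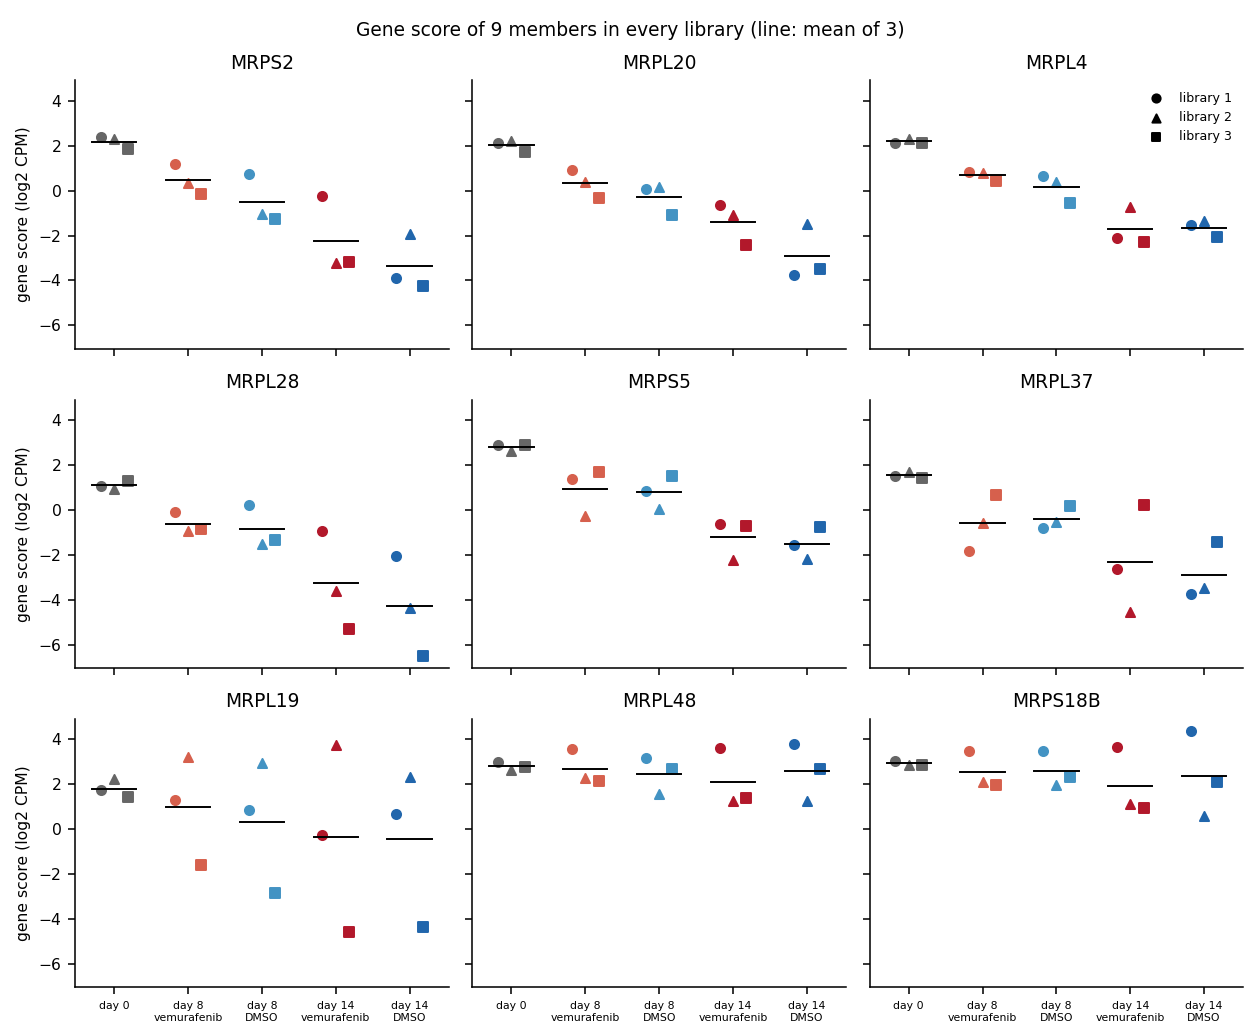
Gene score (mean log2 CPM of the tested guides) of 9 genes in all 15 libraries, with a marker for each replicate number, a line at the mean of 3 libraries, day 0 at the left and vemurafenib left of DMSO on each day. The upper 6 genes were lower in every DMSO library at day 14 than in any day 0 library. The lower 3 overlap day 0, and for MRPL19 library 2 stands above library 3 in every group, day 0 included.

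At the other end stood MRPL19, MRPL48 and MRPS18B, which had the most positive median log2 fold change over guides for growth to day 14. MRPL19, the counterpart of bacterial L19, had 29.0, 146 and 0.287 summed CPM at day 14 in DMSO, against 13.7, 19.7 and 11.1 CPM at day 0. Library 2 was above and library 3 far below all day 0 libraries, and in vemurafenib at day 14 the values were 39.7, 852 and 0.236 CPM. The 2 measures of its change differed in sign, a median guide log2 fold change of 1.28 from group means and a score change of -2.25 ± 2.02 (edgeR/RRA adjusted p = 1, limma adjusted p = 0.55). Without DMSO library 2 at day 14 the median log2 fold change was -2.45. MRPL48, specific to mitochondria, had 84.8, 77.9 and 31.0 CPM at day 14 in DMSO, against 31.1, 35.5 and 29.7 CPM at day 0 (score change -0.23 ± 0.74, limma adjusted p = 0.881). One of its guides had 5, 0 and 0 reads at day 0 and was not tested, so its score rests on 3 guides.

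The 3 human relatives of bacterial S18 gave a comparison within 1 family. MRPS18A lies in the large subunit, and MRPS18B and MRPS18C in the small subunit. MRPS18A had 326, 25.9 and 36.1 summed CPM at day 14 in DMSO, against 44.9, 39.5 and 47.9 CPM at day 0, so library 1 was high and the others low. Its guide 2 held 16955 of the reads in that library while guide 1 had 0, 2 and 0 reads in the 3 DMSO libraries, against 533, 362 and 470 at day 0. The score fell by limma (-3.48 ± 0.47, limma adjusted p = 0.00401), whereas with counts summed over guides the log2 fold change was 0.97. MRPS18B had 136, 9.48 and 46.1 CPM at day 14 in DMSO, against 34.1, 33.1 and 31.7 CPM at day 0 (score change -0.58 ± 1.11, limma adjusted p = 0.74). MRPS18C had 4.33, 17.8 and 2.01 CPM at day 14 in DMSO, against 17.7, 18.9 and 17.4 CPM at day 0 (score change -2.87 ± 1.03, limma adjusted p = 0.115, and 0.0072 with the replicate block). MRPS18A and MRPS18C thus passed or passed with the block, and MRPS18B did neither.

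Guides of 1 gene did not move alike. Of the 311 tested guides against these genes, 275 (88.4%) had a lower mean log2 CPM at day 14 in DMSO than at day 0, where 62.9% of all targeted guides and 25% of untargeted guides did. A drop of more than 1 on that scale was seen for 214 guides (68.8%), against 38.1% of all targeted and 5.12% of untargeted guides. No single guide of these genes passed the edgeR test for growth to day 14 (0 of 77158 tested guides were called lower). All 4 guides dropped by more than 1 for 18 genes, 3 guides for 32 genes, 2 for 20 genes and 1 for 6 genes. The 2 genes with 0 such guides were MRPL54 and MRPS31. For MRPL54 the 4 guides changed by -0.54 to -0.04, the narrowest range of all 78 genes, and for MRPS18A by -7.77 to 1.94, the widest. The median range over the guides of a gene was 4.90. These counts and ranges per gene were not taken over all genes, so they do not show a trait particular to the 78.

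The remaining reads of these genes gathered in few guides. At day 0 the top 10 of the 312 guides held 9.0% to 10.1% of their reads. At day 14 they held 53.2% to 63.9% in vemurafenib and 30.0% to 45.4% in DMSO. The leading guide in library 2 was guide 1 of MRPL41 on both days and in both arms, with 15.2% of the reads at day 14 in vemurafenib and 17.4% in DMSO. In library 3 at day 14 it was guide 4 of MRPS33 in both arms, with 19.7% in vemurafenib and 7.99% in DMSO. In library 1 at day 14 guide 3 of MRPS30 led in vemurafenib with 32.5% and guide 2 of MRPS18A in DMSO with 10.3%. These genes were named after their values were seen, and what made single guides expand was not tested. The library as a whole became less even too. The top guide of all held 0.01% to 0.0115% of all reads at day 0. At day 14 it held 0.183% to 0.404% in vemurafenib and 0.118% to 0.192% in DMSO. The share of the top 10 guides was not taken for other gene sets.

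At day 8 in DMSO the scores already lay below day 0. The score change had a median of -1.50 over the 78 genes and -0.21 over all genes, and it was below 0 for all 78 (66.3% of all genes). The median guide log2 fold change was -0.66 over the 78 genes and 0.16 over all genes. In every pair of equal replicate number 60 were lower (30.6% of all genes). Libraries at day 8 in DMSO lay below those at day 0 without overlap for 49 of the 78 (18.4% of all genes). None passed edgeR/RRA, which called 0.236% of all genes lower, and 33 of the 78 were lower at an unadjusted edgeR/RRA p under 0.05 (5.02% of all genes). Limma called 0 of the 78 (0.524% of all genes were called lower), with 22 lower at an unadjusted limma p under 0.05 (5.93% of all genes), and 11 fell with the replicate block (3.28% of all genes). MRPL18, whose bacterial relative binds the small rRNA of the large subunit, had the lowest edgeR/RRA p (score change -2.60 ± 0.21, edgeR/RRA adjusted p = 0.11, limma adjusted p = 0.0593, 0.00692 with the block). MRPL4 passed edgeR/RRA at day 8 only without DMSO library 2 (adjusted p = 0.0403, and 0.137 with all libraries, score change -2.04 ± 0.37, limma adjusted p = 0.207, 0.032 with the block).

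From day 8 to day 14 in DMSO 76 of 78 scores were lower again, as were 78% of all genes. The score change from day 8 to day 14 had a median of -1.15 over the 78 genes and -0.39 over all genes. The most negative values included MRPL28 (-3.43 ± 1.40) and MRPS2 (-2.84 ± 0.96), and the highest value of the 78 was 0.11. Libraries at day 14 lay below those at day 8 without overlap for 21 of the 78 (7.62% of all genes). None passed edgeR/RRA (0.0262% of all genes were called lower), limma (0%) or limma with the replicate block (0.0314%), with 11 lower at an unadjusted edgeR/RRA p under 0.05 (3.76% of all genes) and 19 lower at an unadjusted limma p under 0.05 (4.51% of all genes).

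Other genes needed to make proteins inside mitochondria were set beside these for growth to day 14, where limma called 7.97% of all genes lower, and 26% with the replicate block. Of 19 genes for mitochondrial aminoacyl-tRNA synthetases and the related amidotransferase, which charge the organelle's tRNAs, 10 fell by limma (17 with the block) with a median score change of -3.15. MARS2, the methionine enzyme, changed by -6.37 ± 0.87 (limma adjusted p = 0.000355). Of 28 assembly factors of the mitochondrial ribosome 13 fell (18 with the block, median -2.22), among them RCC1L, a protein tied to ribosomal RNA maturation (-5.24 ± 0.45, limma adjusted p = 0.000946). Of 16 genes for mitochondrial DNA upkeep and transcription 8 fell (12 with the block, median -2.65). TWNK, the helicase of mitochondrial DNA replication, changed by -7.16 ± 0.44 and passed both tests (edgeR/RRA adjusted p = 0.0018, limma adjusted p = 2.59e-05). Of 16 translation factors 2 fell (12.5%), but 9 with the block (56.2%), with a median of -1.57. The 2 were TUFM, the elongation factor that brings tRNAs to the ribosome (-5.62 ± 0.35, limma adjusted p = 9.73e-05), and GFM2, a factor of ribosome recycling (-5.39 ± 1.08, limma adjusted p = 0.0139).

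The subunits of the respiratory chain and ATP synthase, which contain the products of mitochondrial translation, were called at a share near that of all genes. Of 84 such genes 8 fell by limma (9.52%, all genes 7.97%) and 26 with the replicate block (31%, all genes 26%), with a median score change of -1.01. Of 87 tested cytosolic ribosomal protein genes 44 fell (72 with the block, median -3.35). RPL27 of the cytosolic large subunit changed by -6.20 ± 0.12 (edgeR/RRA adjusted p = 0.00531, limma adjusted p = 2.25e-05). Of 5 mitochondrial ribosomal proteins with other names, DAP3, a small-subunit protein that binds GTP, was the 1 that fell (-3.01 ± 0.17, limma adjusted p = 0.00559), and 4 of the 5 fell with the block. CHCHD1 of the small subunit had a score change of 0.71 ± 0.36 (limma adjusted p = 0.302), above all 78 MRPL and MRPS genes. Differences between these lists were not tested.

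**Figure D4:**
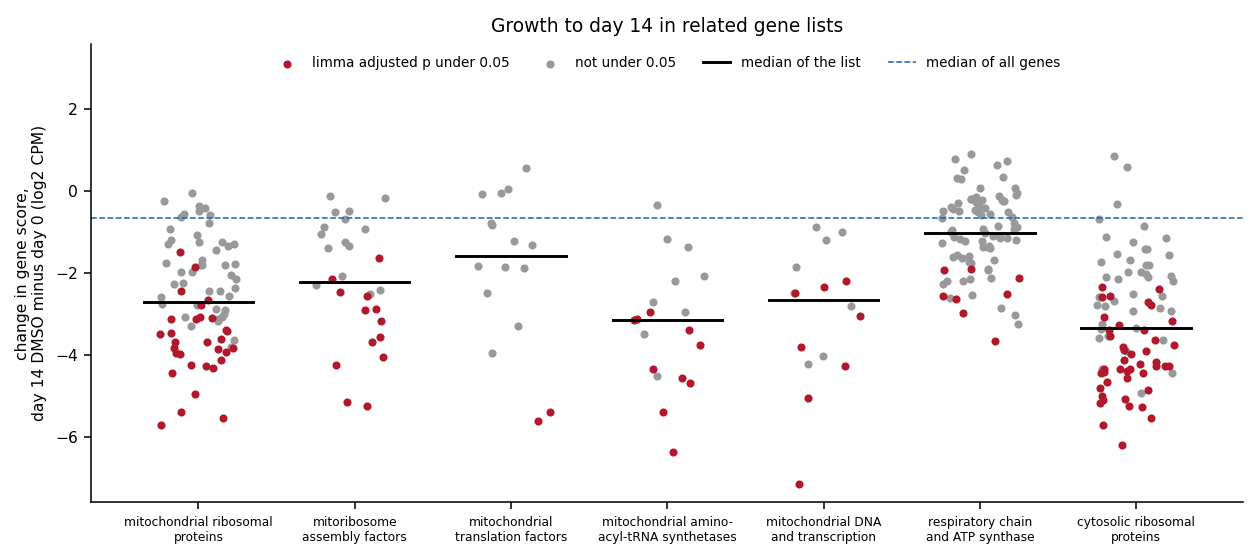
Change in gene score from day 0 to day 14 in DMSO for the 78 mitochondrial ribosomal protein genes and 6 related gene lists, 1 point per gene, with red for a limma adjusted p under 0.05, a black line at the median of each list and a dashed line at the median of all genes (-0.65). The mitochondrial ribosomal protein genes have a median of -2.70, between the cytosolic ribosomal proteins at -3.35 and the respiratory chain and ATP synthase at -1.01.

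Whether BRAF inhibition changed the need for the mitochondrial ribosome was asked by vemurafenib against DMSO on the same day. These comparisons share the DMSO libraries with those for growth, so the values are not independent of them. At day 8 none of the 78 genes passed edgeR/RRA in either direction (0.0157% of all genes were called lower and 0.0105% higher), and none passed limma. At an unadjusted edgeR/RRA p under 0.05, 9 were higher in vemurafenib (2.83% of all genes) and 1 lower (2.78%). At an unadjusted limma p under 0.05, 0 were higher (0.089% of all genes) and 0 lower (0.0105%). Since so few of all genes reached that limma p, its 0 says little about the 78. That fit ignores the replicate number, and with the replicate block none of the 78 passed after adjustment (0% of all genes). Without overlap between the arms 4 were higher (1.04% of all genes) and 0 lower (0.607%). The score change had a median of 0.18 over the 78 genes and 0.03 over all genes, and 20 of the 78 were below 0 (44.6% of all genes). Without vemurafenib library 1 the medians were 0.11 and 0.03. On the scale of median guide log2 fold changes at day 8, the 78 genes stood 0.10 above all genes, 0.05 without vemurafenib library 1, 0.19 without vemurafenib library 2 and 0.18 without DMSO library 2. By replicate number 52, 54 and 43 of the 78 were higher in vemurafenib. In every pair 21 were higher (16.1% of all genes) and 4 lower (11.3%).

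At day 14 none of the 78 passed edgeR/RRA or limma (0% of all genes were called in either test), and none passed limma with the replicate block (0.0157% of all genes lower, 0.0105% higher). At an unadjusted edgeR/RRA p under 0.05, 4 were higher in vemurafenib (2.51% of all genes) and 0 lower (2.74%). Those 4 were MRPS23, MRPL20, MRPS10 and MRPL37, and by limma 2 were higher at an unadjusted p under 0.05 (0.927% of all genes) and 0 lower (2.12%). Without overlap between the arms 1 was higher (0.9% of all genes) and 1 lower (1.9%). The score change had a median of 0.23 over the 78 genes and -0.08 over all genes, with 28 of the 78 below 0 (55.7% of all genes). With scaling on the untargeted guides the medians were -0.25 and -0.56, so the sign of the members' median depended on the scaling while its place above all genes did not. By replicate number 48, 46 and 40 of the 78 were higher, and in every pair 17 were higher (11.6% of all genes) and 8 lower (16.7%). On the scale of median guide log2 fold changes, the 78 genes stood 0.33 above all genes, 0.03 without vemurafenib library 1 and 0.19 without vemurafenib library 3. A test of the vemurafenib effect at day 14 minus that at day 8 called 0 of the 78 (edgeR/RRA and limma). At an unadjusted edgeR/RRA p under 0.05, 4 were higher and 0 lower (2.61% of all genes higher, 2.73% lower). At an unadjusted limma p under 0.05 there were 0 (0.0209% of all genes higher, 0.147% lower). So few of all genes reached that limma p that this 0 says little about the 78.

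**Figure D5:**
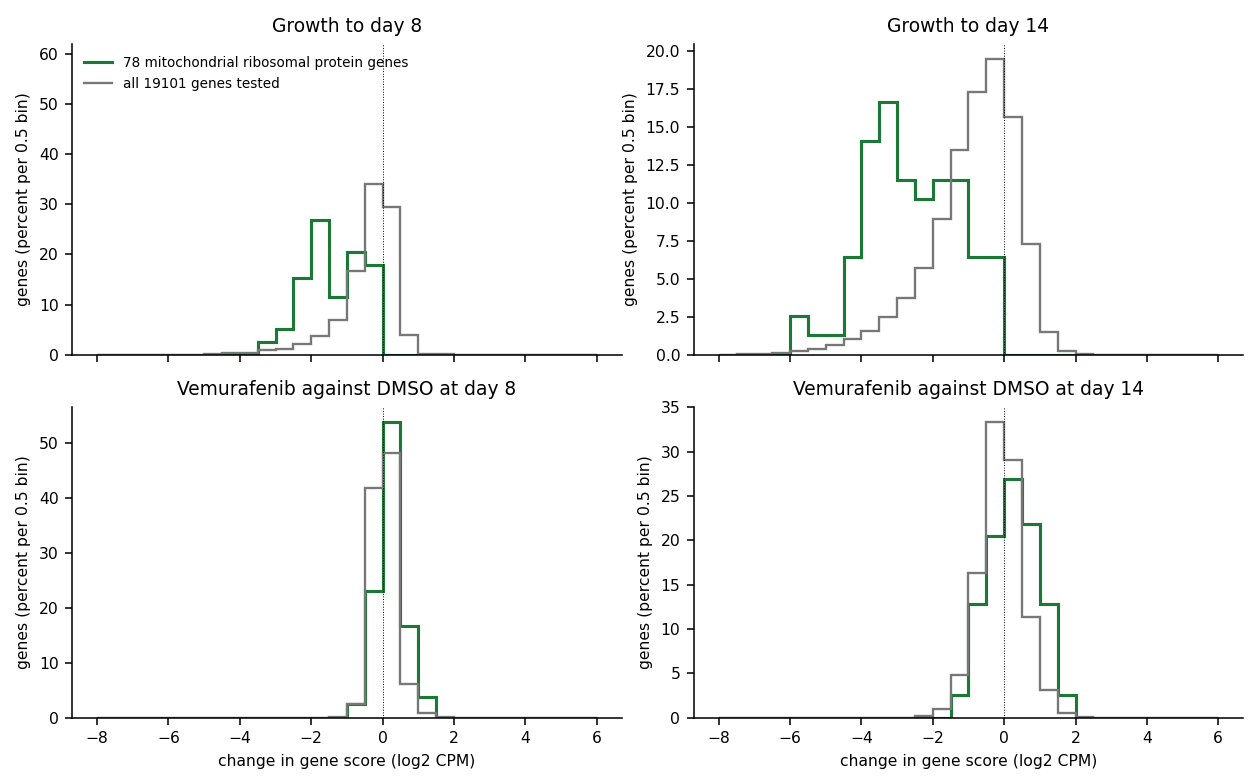
Distribution of the change in gene score over the 78 mitochondrial ribosomal protein genes (green) and all 19101 genes tested (grey), as percent of genes per bin of 0.5, for growth to day 8 and day 14 (upper) and for vemurafenib against DMSO at day 8 and day 14 (lower). The green outline lies to the left of the grey one for growth (medians -2.70 and -0.65 at day 14) and slightly to its right for vemurafenib (0.23 and -0.08 at day 14).

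MRPS23, a mitochondria-specific protein of the small subunit, had the lowest p of the 78 for vemurafenib at day 14. Its summed CPM was 40.5, 22.9 and 327 in vemurafenib, against 13.5, 7.31 and 48.9 in DMSO. The scores were -0.72, 0.97 and 0.08 in vemurafenib and -1.21, -1.37 and -1.30 in DMSO, with no overlap. Guide 3 held 334, 703 and 10424 reads in vemurafenib, against 409, 315 and 1980 in DMSO, so most of the sum in library 3 came from 1 guide. The score change was 1.40 ± 0.49 (edgeR/RRA adjusted p = 0.198, limma adjusted p = 1, and 0.381 with the replicate block), so it did not pass. Relative to day 0 MRPS23 fell in both arms by limma. The change was -2.54 ± 0.53 for vemurafenib at day 14 (limma adjusted p = 0.00957) and -3.94 ± 0.22 for DMSO (limma adjusted p = 0.00087).

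MRPL20 came next, with scores of -0.66, -1.10 and -2.44 in vemurafenib at day 14 and -3.77, -1.47 and -3.51 in DMSO. The groups overlap, though the vemurafenib score of MRPL20 was higher in each pair of equal replicate number. Its score change was 1.52 ± 0.90 (edgeR/RRA adjusted p = 0.849, limma adjusted p = 1). The lowest p values downwards at day 14 belonged to MRPL54 and MRPS27, both mitochondria-specific. MRPL54 had 18.5, 67.9 and 46.2 CPM in vemurafenib, against 23.4, 55.8 and 50 CPM in DMSO (score change -0.32 ± 0.74, edgeR/RRA adjusted p = 0.987). MRPS27, a protein with RNA-binding helical repeats, had 44.8, 3.15 and 19.4 CPM in vemurafenib, against 26.6, 5.96 and 16.0 CPM in DMSO (score change -1.10 ± 1.37, edgeR/RRA adjusted p = 0.993). Both overlapped between arms, and the spread between libraries was larger than the difference.

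At day 8 the lowest p values upwards belonged to MRPS18C and MRPL22. MRPS18C had 5.70, 21.4 and 6.51 CPM in vemurafenib, against 6.01, 11.4 and 4.76 CPM in DMSO (score change 0.54 ± 0.85, edgeR/RRA adjusted p = 0.587). MRPL22, whose bacterial relative also lines the exit tunnel, had 19.2, 5.79 and 37.7 CPM in vemurafenib, against 16.0, 6.26 and 21.5 CPM in DMSO (score change 0.65 ± 0.82, edgeR/RRA adjusted p = 0.656). The S18 relatives MRPS18A and MRPS18B had score changes of -0.11 ± 0.58 and -0.07 ± 0.67 at day 8, and of 1.42 ± 0.67 and -0.44 ± 1.41 at day 14. For MRPS18C the change at day 14 was -0.75 ± 1.63, and none of the 3 passed on either day (limma adjusted p = 1) or with the replicate block. These errors ignore the replicate number. By number, the MRPS18A scores at day 14 were 2.15, 0.84 and 0.62 in vemurafenib, against 0.69, -0.56 and -0.79 in DMSO, so each pair was higher. The pairs of MRPS18B and of MRPS18C at day 14 did not share 1 direction. In MRPS18C and MRPL22 at day 8, 1 vemurafenib library stood above the rest and the groups overlapped. Paired by number, MRPL22 scores at day 8 were 1.32, -0.01 and 2.04 in vemurafenib, against 0.58, -0.56 and 1.38 in DMSO. Each pair of MRPL22 was thus higher, while those of MRPS18C at day 8 did not share 1 direction. Downwards the lowest p values at day 8 belonged to MRPL21 (score change -0.60 ± 0.35, edgeR/RRA adjusted p = 0.774) and MRPL55 (-0.18 ± 0.42, edgeR/RRA adjusted p = 1), 2 large-subunit proteins with bacterial relatives. The score of MRPL21 was lower in each pair, and the pairs of MRPL55 differed in direction. MRPL21 had 16.3, 27.3 and 24.2 CPM in vemurafenib, against 18.2, 25.6 and 30.4 CPM in DMSO. MRPL55 had 18.2, 38.6 and 17.7 CPM in vemurafenib, against 24.9, 37.5 and 21.1 CPM in DMSO.

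Vemurafenib was also set against day 0, a comparison that shares the day 0 libraries with growth in DMSO. At day 14 the score change had a median of -2.30 over the 78 genes and -0.80 over all genes. The median guide log2 fold change was -0.92 over the 78 genes and 0.27 over all genes. All 3 vemurafenib libraries lay below day 0 for 56 of the 78 (33.6% of all genes). Limma called 31 of the 78 lower (11.2% of all genes), and 58 with the replicate block (33.9% of all genes), the 31 among them. EdgeR/RRA called 0 (0.0157% of all genes), with 11 lower at an unadjusted edgeR/RRA p under 0.05 (3.72% of all genes) and 52 at an unadjusted limma p (26.4%). With counts summed over the guides of a gene, edgeR called MRPS5 (log2 fold change -2.80, adjusted p = 0.0117) and MRPS35 (-2.99, adjusted p = 0.022). Limma called 8, 8 and 10 of the 78 when day 0 library 1, 2 or 3 was left out, where it called 2.85%, 2.93% and 2.98% of all genes. At day 8 in vemurafenib the median was -1.16 over the 78 genes and -0.19 over all genes, and 46 of the 78 did not overlap day 0 (17.6% of all genes). Limma and edgeR/RRA called 0 there (0.204% and 0.152% of all genes were called lower), 17 were lower at an unadjusted edgeR/RRA p under 0.05 (4.25% of all genes) and 16 at an unadjusted limma p (4.46%), and 3 fell in limma with the block (1.86% of all genes).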

How the data were processed

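The deposited table holds whole-number counts of reads for each guide in each library, not normalized. Per the submitters' processing notes, bcl2fastq, HISAT2 and HTSeq were used, with no versions listed. Every value was checked to be a whole number, and 0 columns lacked a sample.

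From the deposited counts, guides passing filterByExpr (at least 10 in the smallest group, 15 in total) were scaled with TMM and fitted in R 4.3.3 with edgeR 4.0.16 (quasi-likelihood, 1 mean per group, 15 libraries). Robust rank aggregation (RRA, alpha 0.25, exact null) turned guide p-values into 1 p for each gene and direction. The smaller one was doubled and adjusted by Benjamini-Hochberg over 19101 genes with at least 3 tested guides. Gene scores were tested with limma 3.58.1, and DESeq2 1.42.0, other scalings, no filter, summed counts, a replicate block and left-out libraries were alternatives. The edgeR/RRA steps were tested on simulated counts for growth to day 14, with libraries drawn without regard to replicate number. Limma on the gene scores was not tested in this way.

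Replicate numbers paired the libraries: same-numbered libraries deviated together in all 30 pairs (r 0.46 to 0.843), so blocked counts are given where they moved by over 1.5 times, and blocked limma p-values for named genes whose limma call changed. The members and lists were chosen with earlier results of these data known. Genes were named by rule: lowest p and most positive change for growth, lowest p for vemurafenib, the S18 relatives, and up to 4 genes per list. MRPS34, MRPS31, MRPL18 and others outside it are named as extremes or for their roles, after their values were seen.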

Additional observations from a re-analysis of the deposited data

How the results depend on the processing

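With edgeR/RRA no alternative scaling, filter, tool or block called any of the 78 genes, and leaving out 1 library gave 0 to 1 for growth to day 8 and 0 to 1 for growth to day 14. For growth to day 14 limma on the gene scores gave 31 in its place, and for vemurafenib at day 14 against day 0 it gave 31 and counts summed per gene gave 2. The alternatives of limma were chosen after seeing the data. For growth to day 14 limma called 62 with the replicate block (26% of all genes), 72 with scaling on untargeted guides (61.6% of all genes) and 15 to 29 with 1 library left out (15, 16 and 15 without day 0 library 1, 2 or 3, and 2.83% to 3.0% of all genes). For growth to day 8 it called 11 with the replicate block (3.28% of all genes), 8 with scaling on untargeted guides (1.7%), 4 with a prior count of 5 (1.2%) and 1 with only the libraries compared (0.633%). For vemurafenib at day 14 against day 0 it called 58 with the replicate block (33.9% of all genes), 75 with scaling on untargeted guides (84.5%), 15 with a prior count of 5 (4.82%), 17 with only the libraries compared (6.35%) and 8 to 27 with 1 library left out (2.85% to 9.34%). At day 8 against day 0 it called 3 with the replicate block (1.86%).

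The median guide log2 fold change of the 78 genes minus that of all genes kept its sign in these cases, with 1 exception. For growth to day 8 it was -0.82, -1.21 with the replicate block, -0.59 with summed counts, -1.29 on gene scores and -1.03 to -0.78 with 1 library left out. For growth to day 14 it was -1.17, -2.03 with the block, -0.87 with summed counts, -2.05 on gene scores and -1.48 to -1.20 with 1 library left out. For growth between days 8 and 14 it was -0.41, -0.76 on gene scores and -0.67 to -0.28 with 1 library left out (-0.67 without day 14 DMSO library 1). The size of the score changes depended on the added count. With 5 added in place of 0.5, median score changes to day 14 were -1.93 over the 78 genes and -0.44 over all genes. Between days 8 and 14 they were -0.59 and -0.21. For the vemurafenib effect at day 14 minus day 8, the exception, the median guide log2 fold change of the 78 genes minus that of all genes was 0.15, and -0.16 to 0.30 with 1 library left out (-0.16 without day 14 vemurafenib library 1). For vemurafenib against DMSO at day 14 it was 0.33, and 0.03 to 0.42 with 1 library left out. Against day 0, vemurafenib at day 8 gave -0.70, -1.02 with the block, -0.55 with summed counts, -0.97 on gene scores and -0.85 to -0.66 with 1 library left out. Vemurafenib at day 14 gave -1.19, -1.40 with the block, -0.65 with summed counts and -1.49 on gene scores. The replicate block changed no other call of edgeR/RRA. The cause of these shifts was not tested. The part of read depth was not tested.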
